A study of Mus musculus with 4 samples.

Results

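The genes followed here encode splicing factors of the SR and hnRNP classes together with core proteins of the spliceosome. Their probe sets were chosen by gene symbol, with earlier results of these data known. A probe set was a member when its only symbol in the platform annotation was on a list. The list held Srsf, Hnrnp, Sf3a, Sf3b, U2af, Prpf, Snrp, Tra2 and Luc7l genes, and Son, Srrm1, Srrm2, Rbm25 and Rbm39. Hnrnpr and Hnrnpd were left out. This gave 229 of 45037 non-control probe sets, for 70 of 18193 genes with a symbol of their own. A probe set is a group of short probes for 1 transcript region, and a gene can have several. Gene IDs of all 70 were found among RefSeq genes (GRCm38.p6), with no change of symbol. No coordinates are given, since the build behind the annotation is not stated.

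Splicing removes introns from pre-mRNA in the nucleus. SR proteins, named for runs of serine and arginine, bind exons and help the spliceosome to recognise them, whereas hnRNP proteins coat nascent RNA and often hold splice sites back. The genes of many splicing factors are themselves spliced in alternative ways, with retained introns or exons that lead to decay of the RNA. A transcript that keeps an intron is often held in the nucleus, so probe sets of the same gene can in principle report transcripts with different locations.

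RNA was measured in NIH/3T3 cells, an established line of mouse embryo fibroblasts. Serum-starved cells were set on a porous membrane with fibronectin on its lower face and extended pseudopodia through the pores for 1 h. Both compartments were fixed in 0.3% formaldehyde for 10 min, separated by wiping 1 face of the membrane, and heated at 70 °C for 45 min to undo the crosslinks. There were 2 arrays of pseudopodia and 2 arrays of cell bodies, which hold the nucleus. The cells of both groups were the same line, the same medium and the same stimulus, with no untreated group. The design text calls the samples of a compartment independent, but separate cultures are not stated anywhere in the labels. The p-values below therefore reflect how far the arrays of a compartment lie apart, and that spread may be technical. Each array was read from bulk RNA, so fewer cells or protrusions and less RNA per cell cannot be told apart.

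The deposited values are intensities on a linear scale with a floor of 20 on every array. Array medians lay between 40.5 and 45.6, and 30.5% to 34.8% of probe sets were at the floor. Fibroblast RNAs such as Vim, Col1a1 and Fn1 were bright, but the fibroblast markers Thy1 and Postn were at or next to the floor on all 4 arrays. Of 10 fibroblast markers, 8 could be tested, 4 fell in pseudopodia and 0 rose, and their summed intensity was 42573 and 43494 in pseudopodia against 66164 and 58933 in cell bodies. Of 7 epithelial markers 6 were tested and 0 called, with sums of 2627 to 2725 against 2948 to 3792. Of 4 haematopoietic markers with a probe set, 3 were at the floor on at least 3 arrays, Itgam on all 4, and the sums were 112 to 128. The part of these markers in the results was not tested.

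Of the 229 probe sets, 192 (83.8%) passed the filter on dim values, a mean log2 intensity of at least 5.42 over the 4 arrays, and they represented 69 of the 70 genes. The 37 others read between 20 and 62.6, and 10 of them lay at the floor on every array, including the only probe set of Srsf12. No tested member touched the floor. Probe sets whose names end in _s_at or _x_at can match transcripts of more than 1 gene, by the array maker's naming, so their gene is less certain. A difference below is the mean log2(intensity + 1) of pseudopodia minus that of cell bodies, with its standard error (SE), and a probe set is said to have risen or fallen in pseudopodia when limma gave an adjusted p under 0.05 over all 22519 tested probe sets.

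Some splicing factor RNAs were higher in pseudopodia, among them Luc7l3, Rbm25 and Hnrnph2, and fewer were lower, among them Son. Of 192 tested probe sets, 9 rose and 3 fell, together 6.25%, against 11.7% of all tested probe sets (4.3% higher and 7.44% lower). With the arrays centred on their medians the split was 15 higher and 10 lower, where 16.9% of all tested probe sets were called. The median difference was 0.06 over the members and -0.0038 over all tested probe sets. Differences of the members ran from -2.06 to 1.3, and 106 were above 0. The arrays of the compartments did not overlap at 127 member probe sets (66.1%), 74 of them higher and 53 lower in pseudopodia, against 59.6% of all tested probe sets (28.7% higher and 30.9% lower). Members against other RNAs were not tested. With each gene represented by its brightest probe set, 6 of 69 genes rose and 2 fell (11.6%), against 14.6% of all 11320 genes, of which 5.92% rose and 8.69% fell. With median centring 5 genes rose and 4 fell, where limma called 2012 of all genes.

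**Figure D1:**
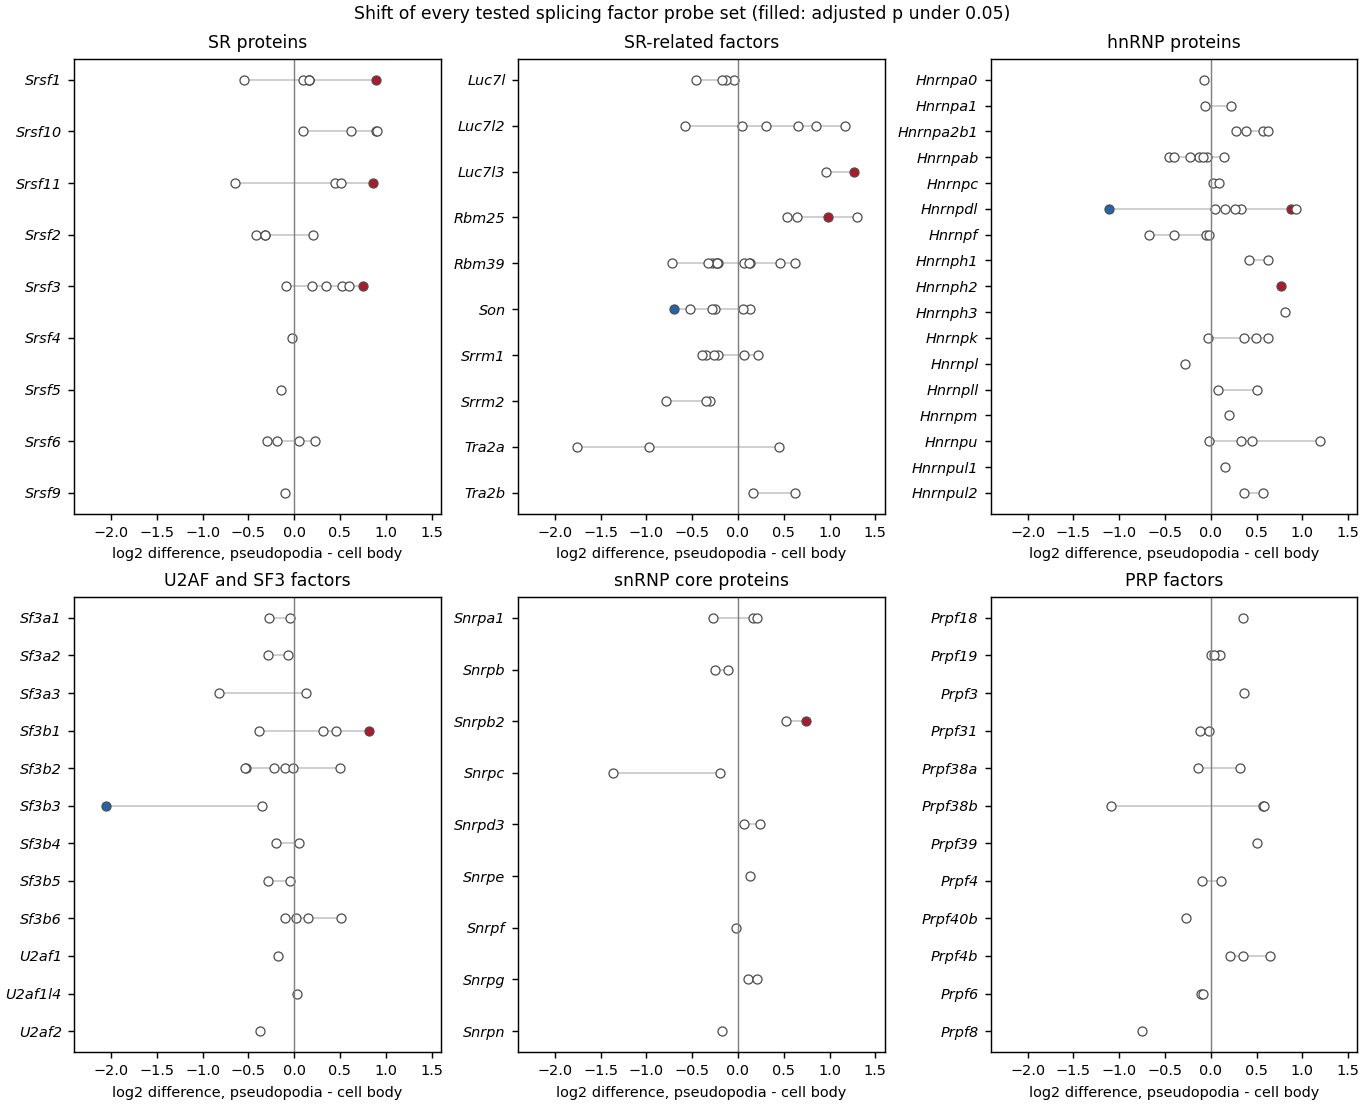
Each circle is a tested probe set, placed by its log2 difference (pseudopodia minus cell body, x axis) on the row of its gene, in 6 panels by role; a grey line spans the probe sets of a gene. The 9 filled red circles rose and the 3 filled blue circles fell in pseudopodia at an adjusted p under 0.05, and Hnrnpdl holds 1 of each.

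Among the SR proteins, 3 of 31 tested probe sets rose (9.68%) and 0 fell, 20 lay above 0, and the median was 0.16. For this and each role group below, the shares over all tested probe sets were 4.3% higher and 7.44% lower. The brightest genes of the group did not pass the test. Srsf2, which binds purine- and cytosine-rich exon sequences, read 4125 and 3445 in pseudopodia and 4743 and 4694 in cell bodies at its brightest probe set (difference -0.32, SE 0.16, adjusted p = 0.264). Srsf6 had a difference of -0.30 (adjusted p = 0.275) and Srsf9 of -0.10 (adjusted p = 0.70) at theirs. At these probe sets all 3 genes were wholly lower in pseudopodia, by amounts that the test did not separate from the spread between arrays.

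The rises in this group were each found at a dimmer probe set of a gene with several. Srsf1, the founding SR protein, read 241 and 229 in pseudopodia against 118 and 136 in cell bodies at probe set 1428100_at, and rose there by 0.89 (SE 0.15, adjusted p = 0.0353). Its brightest probe set, 1428099_a_at, had a difference of 0.16 (adjusted p = 0.663), and there the 3664 and 3141 of pseudopodia overlapped the 2636 and 3494 of cell bodies. Srsf11, an SR-type protein, rose by 0.86 (SE 0.15, adjusted p = 0.0353) at 1427269_at, with 466 and 514 against 279 and 261. Srsf3, the smallest of the classical SR proteins and a factor in mRNA export, rose by 0.75 (SE 0.15, adjusted p = 0.0461) at 1416151_at, with 1236 and 1293 against 710 and 801. The other probe sets of Srsf3 did not pass: 4 had differences of 0.19 to 0.60, all wholly higher in pseudopodia, and the dimmest had a difference of -0.09. Srsf10, a splicing repressor when dephosphorylated, rose in the gene fit by 0.89 (SE 0.20, adjusted p = 0.0494), with 530 and 673 against 286 and 364, but missed the threshold in the probe set fit (adjusted p = 0.0647). Its 4 probe sets all lay above 0, from 0.10 to 0.90.

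SR-related factors held the highest difference among the members, 1.30, and genes called in both directions. Of 47 tested probe sets, 2 rose and 1 fell, 23 were above 0 and the median was -0.04. Luc7l3, a homologue of the yeast U1 snRNP protein Luc7, rose by 1.27 (SE 0.20, adjusted p = 0.0304) at 1424802_a_at, from 509 and 562 in cell bodies to 1116 and 1500 in pseudopodia. Its second tested probe set had a difference of 0.96 (SE 0.37, adjusted p = 0.172), with 222 and 460 against 163 and 165. Both probe sets were wholly higher in pseudopodia, and both read higher on the second pseudopodia array. Rbm25, which works with the U1 snRNP at 5' splice sites, rose by 0.98 (SE 0.14, adjusted p = 0.0271) at 1428907_at, where the arrays read 366 and 374 against 190 and 185. Its brightest probe set had the larger difference, 1.30, but a wider spread, at 783 and 1390 against 419 and 429 (SE 0.30, adjusted p = 0.0625; 0.0494 in the gene fit). All 4 tested probe sets of Rbm25 were above 0, from 0.53 to 1.30.

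Son and Srrm2, large proteins of nuclear speckles, were each lower in pseudopodia at their brightest probe set. Son read 2654 and 2761 in pseudopodia and 4353 and 4470 in cell bodies at its brightest probe set, 1420952_at, and fell by 0.70 (SE 0.14, adjusted p = 0.0446). Its 5 other tested probe sets had differences from -0.52 to 0.13 and did not pass. Srrm2 read 2750 and 3615 against 5557 and 5340 at 1438688_at (difference -0.79, SE 0.19, adjusted p = 0.0661), and fell in the gene fit (adjusted p = 0.0499). The remaining probe sets of Srrm2 differed by -0.31 and -0.35 without passing. The related coactivator Srrm1 had a difference of -0.35 (adjusted p = 0.222) at its brightest probe set. Thus the probe sets of Son and Srrm2 with the most signal were wholly lower in pseudopodia, while those of Luc7l3 and Rbm25 were wholly higher. Tra2b, a homologue of the fly sex-determination factor transformer-2, rose in the gene fit by 0.62 (SE 0.13, adjusted p = 0.0401), with 1996 and 1897 against 1276 and 1247, and had an adjusted p of 0.0568 in the probe set fit.

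Among hnRNP genes, 2 of 46 tested probe sets rose (4.35%) and 1 fell (2.17%), and 30 lay above 0, with a median of 0.18. Without overlap between compartments, 24 (52.2%) were higher and 8 (17.4%) lower in pseudopodia, against 28.7% and 30.9% of all tested probe sets. The difference between these shares was not tested. Hnrnph2, a binder of G-rich RNA, rose by 0.77 (SE 0.14, adjusted p = 0.0391) at its only probe set, with 1834 and 1915 against 1051 and 1142. The similarly named Hnrnph3 read 582 and 513 against 341 and 284, a difference of 0.81 (SE 0.17). That difference passed in the gene fit (adjusted p = 0.0374) and missed in the probe set fit (0.0512). Hnrnph1 had a difference of 0.42 (adjusted p = 0.174) at 1870 and 1588 against 1350 and 1223. All 3 genes were wholly higher in pseudopodia at their brightest probe set, and Hnrnph1 showed the smallest difference.

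The brightest hnRNP genes did not differ beyond the test. Hnrnpab, which binds AU-rich and other single-stranded sequences, read 7174 and 6506 in pseudopodia and 7441 and 7470 in cell bodies (difference -0.13, adjusted p = 0.627). Hnrnpc, a core protein of hnRNP particles, read 6233 and 5820 against 5875 and 5970 (0.02, adjusted p = 0.932), and Hnrnpf had a difference of -0.05 (adjusted p = 0.838). All 4 tested probe sets of Hnrnpf lay below 0, from -0.68 to -0.02, and 0 were called. Hnrnpa2b1, whose protein carries RNAs along microtubules in neurons and glia, had 4 of 4 probe sets above 0, from 0.27 to 0.63, with adjusted p between 0.0865 and 0.308. Hnrnpk had 1 probe set at -0.03 and 3 from 0.36 to 0.62 (lowest adjusted p 0.0661). Hnrnpu, which binds RNA and the nuclear matrix, had a difference of 0.45 (adjusted p = 0.110) at 3510 and 3549 against 2549 and 2627.

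Factors that recognise the branch site and 3' splice site tended to lie below 0. Of 29 tested probe sets, 10 were above 0 and 19 below, 1 rose and 1 fell, and the median was -0.10. By gene, 9 of 12 brightest probe sets were below 0, with 0 called either way. The large subunit of the U2AF dimer, U2af2, read 2267 and 2178 against 2836 and 2923 (difference -0.37, SE 0.14, adjusted p = 0.161), and the smaller subunit U2af1 had a difference of -0.18 (adjusted p = 0.488). The other brightest genes, Sf3b5 and Sf3b2, read within 0.10 of 0. The 2 called probe sets belong to Sf3b1, which rose, and Sf3b3, which fell, both subunits of the SF3b complex that holds the branch site, and are described below with the other probe sets of those genes.

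Core snRNP proteins, many of them of the Sm ring, included some of the brightest members, and few differed between compartments. Of 16 tested probe sets 9 were above 0, 1 rose and 0 fell, with a median of 0.09. Snrpg read 7819 and 7778 in pseudopodia against 7261 and 7224 in cell bodies (0.11, adjusted p = 0.667), Snrpe 7448 and 7431 against 6652 and 6948 (0.13, adjusted p = 0.599), and Snrpb had a difference of -0.11 (adjusted p = 0.679). Snrpb2, a protein of the U2 snRNP and not of the ring, rose by 0.74 (SE 0.15, adjusted p = 0.0463) at 1452422_a_at, with 1593 and 1404 against 894 and 897, and had a difference of 0.52 (adjusted p = 0.100) at its brighter probe set. Both were wholly higher in pseudopodia.

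Of 23 tested probe sets of PRP genes, named after yeast mutants defective in RNA processing, 0 passed the test in either direction. At an unadjusted p under 0.05 there were 5 of the 23, against 29.5% of all tested probe sets. Of the 23, 14 lay above 0, with a median of 0.09. Prpf8, the central scaffold of the spliceosome, read 3678 and 2690 in pseudopodia and 5404 and 5163 in cell bodies (difference -0.75, SE 0.20, adjusted p = 0.0847). The kinase gene Prpf4b had a difference of 0.65 (SE 0.19, adjusted p = 0.0953), with 1158 and 1449 against 763 and 889. The ubiquitin ligase Prpf19 read 7160 and 7071 against 7000 and 7203, a difference of 0.00 (SE 0.14, adjusted p = 0.992). Prpf8 was wholly lower and Prpf4b wholly higher, and Prpf19 overlapped.

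Probe sets of the same gene had different values in several splicing factors, but no pair passed the test of that difference. For this test, the log2 ratio of each dimmer probe set to the brightest of its gene was formed on each array, and the ratios were compared between compartments across all 8065 such pairs of 4916 genes. The shift of a pair is the difference of the dimmer probe set minus that of the brightest. limma called 0 of 8065 pairs (0%) at an adjusted p under 0.05 and 0 of the 123 member pairs, with 1727 (21.4%) and 36 (29.3%) at an unadjusted p under 0.05, and the lowest adjusted p of a member pair was 0.0749. The median absolute shift was 0.390 for member pairs and 0.272 for all pairs. The arrays did not overlap in 86 member pairs (69.9%), against 55.3% of all pairs, and 13 (10.6%) were also at least 2-fold apart, against 7.86%. Pairs of a gene share its brightest probe set, so they are not independent. The 13 came from 9 genes and include the Snrpc pair limited below, whereas the 634 such pairs of all genes came from 565. The difference between these shares was not tested.

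Of the 49 members with at least 2 tested probe sets, 11 (22.4%) had 1 probe set wholly higher and another wholly lower in pseudopodia, against 10.1% of all such genes. The 11 were Hnrnpdl, Luc7l2, Prpf38b, Rbm39, Sf3b1, Sf3b2, Son, Srrm1, Srsf11, Srsf6 and Tra2a. Counting any difference from 0, whether or not the arrays overlapped, 24 of 49 (49%) had tested probe sets on both sides, against 38.2% of all such genes. Members had more tested probe sets, 3.51 per gene against 2.64, which gives more room for both directions. Among genes with 2 tested probe sets it was 0 of 22 members against 5.66% of all genes, with 3 it was 2 of 5 against 12.8%, and with 4 to 11 it was 9 of 22 (40.9%) against 23%. The higher shares were thus in members with 3 or more probe sets. The group with 4 to 11 is not matched for number within itself. Of its 9 members, Rbm39 had 11 tested probe sets, Hnrnpdl 7, and Luc7l2, Son, Srrm1 and Sf3b2 6 each. Sf3b1, Srsf11 and Srsf6 had 4 each. Number of probe sets and membership therefore cannot be told apart there. These shares are a description, and their difference was not tested.

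Hnrnpdl, an hnRNP whose own RNA is known to be spliced at its 3' end under control of its protein, was the only member with probe sets called in opposite directions, 1 of 49 genes against 13 of 4916 (0.264%) overall. Probe set 1424252_at read 164 and 153 in pseudopodia and 386 and 304 in cell bodies, and fell by 1.11 (SE 0.18, adjusted p = 0.0320). Probe set 1456698_s_at read 716 and 823 against 413 and 423, and rose by 0.88 (SE 0.15, adjusted p = 0.0356). In neither did the compartments overlap. The second of these has an _s_at name: without _s_at and _x_at probe sets 0 probe sets of Hnrnpdl rose and 1 fell, and without a filter on dim probe sets 0 were called, so the opposite calls were lost in both settings. A further probe set, 1428224_at, had a difference of 0.93 (adjusted p = 0.0510), while the 4 others lay between 0.05 and 0.33, among them the brightest at 3954 and 4026 against 3537 and 3586. The ratio of 1424252_at to the brightest was 0.0418 and 0.0383 in pseudopodia and 0.110 and 0.0849 in cell bodies (shift -1.27, SE 0.18, adjusted p = 0.0870).

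Sf3b1, the branch-site clamp subunit, had a brightest probe set wholly lower in pseudopodia and 3 others wholly higher. The brightest, 1418562_at, read 2193 and 2236 against 2739 and 3038 (difference -0.38, SE 0.15, adjusted p = 0.170), and 1440818_s_at read 1264 and 1254 against 685 and 737, a rise of 0.82 (SE 0.14, adjusted p = 0.0350). The ratio of the latter to the former was 0.577 and 0.561 in pseudopodia and 0.250 and 0.243 in cell bodies, a shift of 1.21 (SE 0.13, adjusted p = 0.0749). Replicate arrays of this pair differed far less than the compartments did. With the stricter filter on dim probe sets, which leaves fewer pairs to adjust over, its adjusted p was 0.0443. The name of 1440818_s_at ends in _s_at, so its gene is less certain. Without _s_at and _x_at probe sets, neither this rise nor this pair is in the comparison.

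Its partner Sf3b3 had the deepest fall of all members. Probe set 1430075_at read 223 and 398 in pseudopodia and 1222 and 1263 in cell bodies, and fell by 2.06 (SE 0.30, adjusted p = 0.0285), while the brighter 1415985_at read 2338 and 2270 against 2947 and 2911 (-0.35, SE 0.14, adjusted p = 0.183). Both probe sets were lower in pseudopodia, by very different amounts (shift -1.71, SE 0.33, adjusted p = 0.111). Sf3a3, of the SF3a complex, had a difference of 0.13 at its brightest probe set and of -0.82 (SE 0.19, adjusted p = 0.0612) at 1432488_a_at, where 267 and 204 stood against 400 and 424 (shift -0.94, adjusted p = 0.0916).

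Tra2a, paralogue of Tra2b, showed the largest shift of a pair among the members. Its brightest probe set, 1454725_at, read 2350 and 2129 in pseudopodia and 1418 and 1885 in cell bodies (difference 0.45, SE 0.20, adjusted p = 0.214). Probe set 1439043_at read 98.3 and 203 against 397 and 587 (-1.76, SE 0.41, adjusted p = 0.0615), and 1429680_at read 81.0 and 162 against 207 and 247 (-0.97, SE 0.36, adjusted p = 0.162). The bright probe set was wholly higher in pseudopodia and both dimmer ones wholly lower. The ratio of 1439043_at to the brightest was 0.0422 and 0.0958 against 0.280 and 0.312, a shift of -2.22 (SE 0.44, adjusted p = 0.113).

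Luc7l2, another Luc7 homologue, went the opposite way, with its brightest probe set below 0 and the others above. Probe set 1436766_at read 722 and 1223 in pseudopodia against 1498 and 1314 (difference -0.58, SE 0.29, adjusted p = 0.267), whereas 1437761_at read 465 and 627 against 196 and 291 (1.17, SE 0.27, adjusted p = 0.0606). The shift was 1.75 (SE 0.32, adjusted p = 0.105), and 5 of its 6 tested probe sets were above 0. In Rbm39, a protein related to U2AF, 5 of 11 tested probe sets were above 0 and 6 below, from -0.72 to 0.62. The ends of that range were 1438420_at, at 880 and 1253 against 1785 and 1672, and 1426671_a_at, at 444 and 424 against 322 and 247, with a shift of 1.34 between them (SE 0.26, adjusted p = 0.109).

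Prpf38b, Srsf11 and Snrpc each had a dim probe set wholly lower in pseudopodia than in cell bodies. In Prpf38b, 1456506_at read 39.6 and 63.6 against 125 and 93.1 (-1.09, adjusted p = 0.0836), while the brightest had a difference of 0.57 (shift -1.66, SE 0.21, adjusted p = 0.0808). In Srsf11, 1430077_at read 41.6 and 53.8 against 84.5 and 65.9 (-0.65, adjusted p = 0.128; shift -1.10, adjusted p = 0.0962). In Snrpc, a U1 snRNP protein, 1444655_at read 25.6 and 40.7 against 72.4 and 99.7 (-1.37, adjusted p = 0.0518; shift -1.17, adjusted p = 0.162). These probe sets lie near the dim end of the scale, where the added 1 and the floor weigh most. The Snrpc probe set passed the filter on dim values only through the cell body arrays, since both pseudopodia values lie under the filter's intensity of 42, so its lower value in pseudopodia supports nothing. This held for 2 of the 192 tested members, neither of them called.

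**Figure D2:**
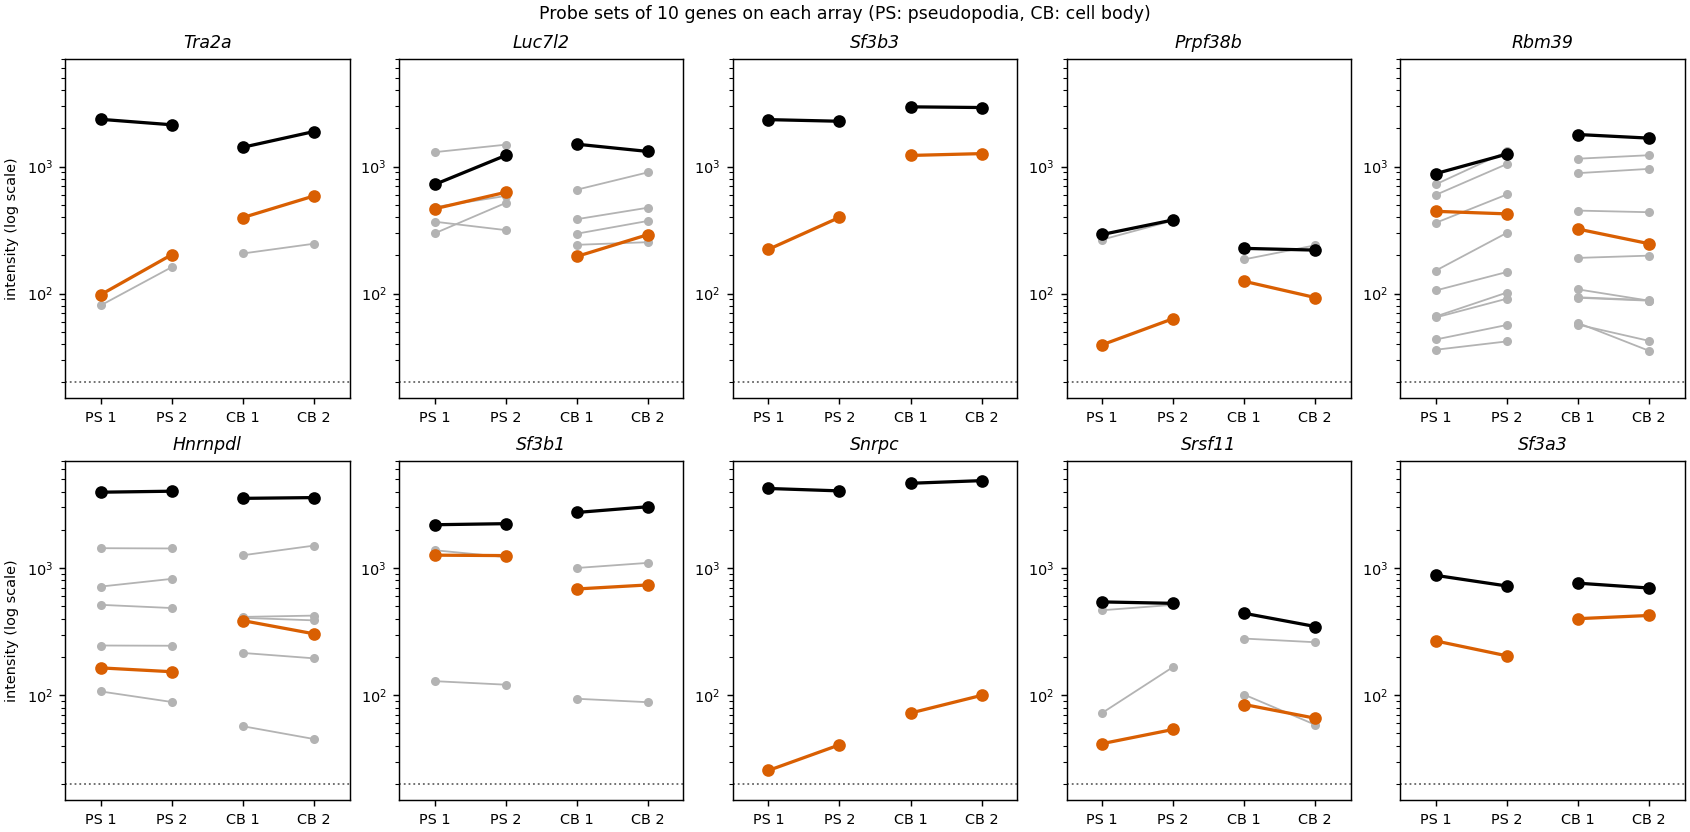
Intensity (log axis) of every tested probe set of 10 genes on the 4 arrays; black is the brightest probe set, orange the one with the largest shift against it among those with no overlap, grey the rest, lines join replicates and the dotted line is the floor of 20. In Tra2a, Hnrnpdl, Prpf38b, Srsf11 and Sf3a3 the orange probe set is lower in pseudopodia while the black one is not, and in Luc7l2, Rbm39 and Sf3b1 it is higher while the black one is lower.

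**Figure D3:**
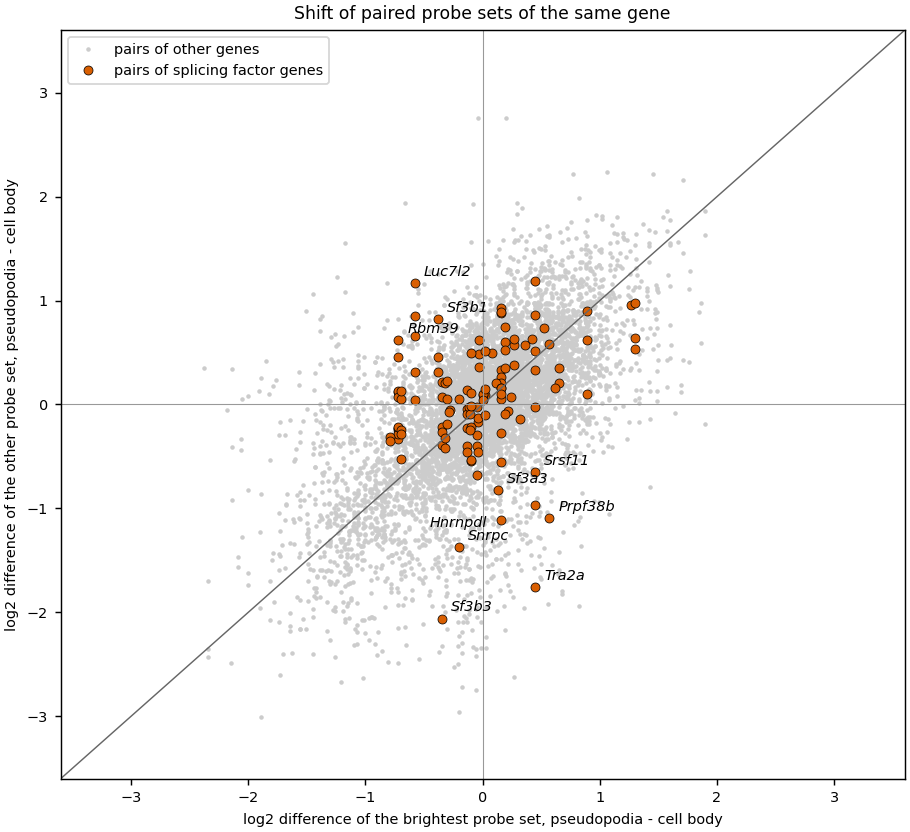
Each point is a pair of probe sets of the same gene, with the log2 difference of the brightest on the x axis and that of another on the y axis (both pseudopodia minus cell body); grey points are genes outside the splicing factors, orange points the 123 member pairs, and the diagonal marks equal differences. Of the member pairs, 40 (32.5%) lie on opposite sides of 0, against 28.9% of all pairs.

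Whether a probe set lies in an exon, an intron or an alternative 3' end is not stated in the files or labels, so a retained intron cannot be assigned to any of them. Measures of RNA state did not all move with compartment. The log2 ratio of 3' to 5' control signal of Actb was 0.56 and 0.65 in pseudopodia and 0.37 and 0.36 in cell bodies. The 18S probe sets gave 2.46 and 1.34 in pseudopodia and 2.76 and 3.05 in cell bodies. Gapdh hardly moved, with -0.07 and -0.07 in pseudopodia and -0.1 and -0.1 in cell bodies. Pcx overlapped, with 2.59 and 2.3 in pseudopodia and 2.52 and 2.24 in cell bodies. Among 4 RNAs known to stay in the nucleus or at chromatin, Neat1, the scaffold of paraspeckles, fell by 1.73 (SE 0.23, adjusted p = 0.0183 in the gene fit), from 2085 and 1814 in cell bodies to 713 and 484 in pseudopodia. Kcnq1ot1 had a difference of -1.08 (adjusted p = 0.149), Malat1 of -0.18 (adjusted p = 0.634) and Meg3 of 0.19 (adjusted p = 0.612). These are the values of the brightest probe sets, and dimmer ones of the same RNAs disagreed with them. The other tested probe set of Neat1 had a difference of -0.17 and that of Kcnq1ot1 of 0.02. Those of Malat1 ran from -0.41 to 0.66, and those of Meg3 were 0.51 and 0.7. The summed intensity of the brightest probe sets of the 4 RNAs was 2525 and 3182 against 4990 and 4824. The part of these RNAs in the disagreement of probe sets was not tested.

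The pseudopodia arrays differed from each other at probe sets of a few SR-related genes. Of 47 tested probe sets of SR-related factors, 13 (27.7%) read more than 1.5-fold higher on replicate 2 than on replicate 1 of pseudopodia and 2 the reverse, against 9.32% of all tested probe sets for the first direction. Of the 13, Rbm39 held 5, Luc7l2, Rbm25 and Tra2a 2 each, and Luc7l3 and Srrm2 1 each, while Son, Srrm1, Luc7l and Tra2b held 0. Probe sets of a gene are not independent, and the difference between groups of genes was not tested. Among hnRNP probe sets it was 0 of 46, and between the cell body arrays 0 of 192 members were as much higher on replicate 2 and 6 on replicate 1. Rbm39 1442744_at read 152 and 301 in pseudopodia but 191 and 199 in cell bodies, and Rbm25 1437862_at was 1.77-fold higher on replicate 2. The 5 probe sets of Sf3b3, Tra2a, Prpf38b and Snrpc described above as far lower in pseudopodia were also higher on replicate 2, by 1.56-fold to 2.05-fold. Others described there were not: the ratio of replicate 2 to replicate 1 was 1.29 at Srsf11 1430077_at, 0.933 at Hnrnpdl 1424252_at and 0.763 at Sf3a3 1432488_a_at. Kcnq1ot1 read 331 and 639 on the pseudopodia arrays, Malat1 1362 and 1885 and Meg3 118 and 175. Neat1 went the other way, with 713 and 484.

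**Figure D4:**
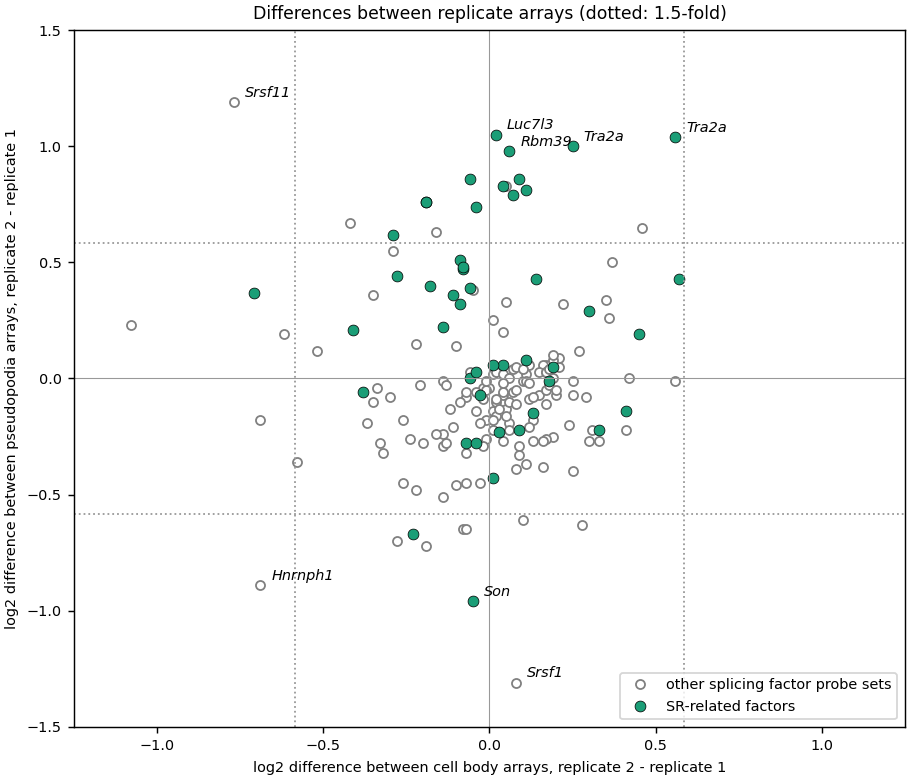
Each circle is a tested member probe set, with the log2 difference between the 2 cell body arrays on the x axis and between the 2 pseudopodia arrays on the y axis (replicate 2 minus replicate 1); green circles are SR-related factors and dotted lines mark 1.5-fold. The 18 circles above the upper dotted line include 13 SR-related probe sets.

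Other genes of the splicing pathway, from lists outside the membership rule, were read from the gene fit, and the lists differed. Over all 11320 genes 5.92% rose and 8.69% fell, and 3553 were at an unadjusted p under 0.05. Of 7 kinase genes that phosphorylate SR proteins, 0 passed, with 3 at an unadjusted p under 0.05 and a median of 0.22. Clk2 came nearest, at 418 and 487 against 695 and 705 (difference -0.63, adjusted p = 0.0503). Among 35 other spliceosome proteins 3 rose and 2 fell, with a median of 0.02. The activation factor Snw1 rose by 0.58 (SE 0.13, adjusted p = 0.0460), the second-step factor Slu7 by 0.75 (SE 0.14, adjusted p = 0.0303) and Cdc5l, of the Prp19 complex, by 0.69 (SE 0.15, adjusted p = 0.0437). The helicase Ddx23 fell by 1.81 (SE 0.19, adjusted p = 0.0166) and Snrnp48, of the minor spliceosome, by 1.19 (SE 0.22, adjusted p = 0.0324). The other tested probe set of Ddx23 had a difference of -0.53 and that of Snrnp48 of 0.44. Those of Snw1 had 0.16 and 0.02, that of Cdc5l had 0.39, and those of Slu7 ran from 0.64 to 1.18.

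Other regulators of splicing leaned upward at their brightest probe sets, with 5 of 24 rising, 0 falling and a median of 0.28. Of all genes, 5.92% rose. Dimmer tested probe sets of these regulators went both ways, from -2.72 at Sfswap to 1.56 at Mbnl2 and Mbnl3. Their list was chosen with earlier results of these data known, and the lean was not tested. Ptbp3, of the polypyrimidine tract-binding family, rose by 1.36 (SE 0.20, adjusted p = 0.0206), from 488 and 408 to 992 and 1316. The muscleblind genes Mbnl1 and Mbnl3 rose by 0.74 (SE 0.13, adjusted p = 0.0269) and 1.15 (SE 0.22, adjusted p = 0.0347), the nuclear matrix protein gene Matr3 by 0.92 (SE 0.18, adjusted p = 0.0368) and Pnn by 0.82 (SE 0.15, adjusted p = 0.0327). Mbnl1 read 3846 and 3822 in pseudopodia against 2314 and 2284 in cell bodies, with replicates nearly equal. Other tested probe sets had differences of 0.52 and 0.73 at Ptbp3, 0.73 at Mbnl1 and 0.53 and 1.56 at Mbnl3. Those of Matr3 ran from 0.14 to 1.29. Of 3 tested genes of the exon junction complex, 17 of Lsm and Sm assembly and 7 of nonsense-mediated decay, limma called 0, 0 and 2, with 1, 0 and 3 at an unadjusted p under 0.05. The 2 were Upf2, which rose by 1.53 (SE 0.20, adjusted p = 0.0183), and Smg8, which fell by 0.75 (SE 0.16, adjusted p = 0.0421).

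When any single array was dropped, no probe set passed the adjusted threshold, members included. This left 1 array in a compartment, so only differences are given. The differences ranged from 0.96 to 1.00 at Rbm25 1428907_at and from -2.47 to -1.64 at Sf3b3 1430075_at. Without a filter on dim probe sets limma called 73 of 45037 probe sets and 0 members. At an unadjusted p under 0.05 there were 57 of 229 members, against 16.7% of all probe sets. The filter, set at the median of all non-control probe sets, was passed by 83.8% of members, so members and all probe sets differ in brightness here. With the filter it was 48 of 192 members, against 29.5% of all tested probe sets.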

How the data were processed

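The authors deposited 1 intensity per probe set and array on a linear scale, from Affymetrix Mouse430_2 arrays per the file headers; how probes were summarised and arrays scaled, and with which software, the sources used here do not say. The array records list 1 chip lot, 1 hybridization time, 1 scan day and 1 scanner, with a fluidics module per array, so no batch could be fitted. From there, log2(intensity + 1) was taken, 64 control probe sets were left out, and probe sets dimmer than a mean log2 of 5.42 (the median over those left) were not tested. No scaling was added. limma 3.58.1 in R 4.3.3 (lmFit, eBayes, two-sided, no covariate, 2 residual degrees of freedom, with 2.7, 2.9 and 2.04 prior ones in the order below) compared compartments over 22519 probe sets, 11320 genes (brightest 1-symbol probe set) and 8065 pairs of probe sets, each with Benjamini-Hochberg adjustment. The fits were tested on simulated data. The number of arrays limits the precision. With 3 ways to split 4 arrays into pairs, no permutation test was run. Members and lists were chosen with earlier results of these data known. Named were called probe sets, the 3 brightest genes of each role, the 10 genes with the largest non-overlapping pair shift and called genes of the other lists. Further members named beside them were chosen after their values were seen.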

Additional observations from a re-analysis of the deposited data

How the results depend on the processing

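The count of member probe sets that rose and fell, 9 and 3, depends on the settings. So does the share called over all tested probe sets. With a pseudocount of 16 it was 17 and 7 of 192, where 14.2% of all were called. Without a filter on dim probe sets it was 0 and 0 of 229, against 0.162% of all. A stricter filter (mean log2 of at least 7.84) gave 25 and 8 of 152, against 26.5% of all. Median centring gave 15 and 10 of 192, against 16.9% of all, and the replicate block 16 and 5, against 14.9%. With quantile normalization 14 rose, where 12.9% of all were called in either direction. Leaving out any 1 array left no member called in either direction. In the full set 48 of 192 members were at an unadjusted p under 0.05, against 29.5% of all tested probe sets. By gene, 6 rose and 2 fell. This was 0 and 0 without a filter, 10 and 4 with the stricter filter, 1 falling with quantile normalization and 4 falling with median centring. No gene passed without 1 array. Over all genes limma called 1654, and in those 4 settings 2, 2031, 1736 and 2012. Member pairs called were 0, and 2 of 86 with the stricter filter, where fewer pairs are tested and 35 of all 3255 were called. Over all tested probe sets limma called 2645, against 73 without a filter, and 0 without any 1 array. Directions turned at probe sets near 0: with quantile normalization Hnrnpf to 0.09, Sf3b2 to 0.02, Sf3b5 to 0.08 and Srsf9 to 0.03, with median centring Hnrnpc to -0.01 and Prpf19 to -0.03, and with 1 array left out Hnrnpc ranged from -0.03 to 0.07, Prpf19 from -0.02 to 0.02 and Sf3a3 1423811_at from -0.01 to 0.27 (Hnrnpc, Prpf19 at -0.01 and Sf3a3 turned without pseudopodia replicate 1, and Prpf19 also without cell body replicate 1). The cause of these changes was not tested. The 12 called member probe sets kept their direction in every alternative that held them. Their arrays did not overlap between compartments, so leaving out 1 array, the pseudocount, the filters and the replicate block could not have turned them. Their kept direction is therefore no measure of stability in those settings. The numbers pair the samples by name alone; deviations of same-numbered arrays correlated at 0.329 over all tested probe sets and 0.0218 over the members.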

Other observations

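Probe sets that carry a splicing factor symbol together with another symbol entered no comparison above. There were 18, of which 14 were bright enough to test, with differences from -0.70 to 1.13. Hnrnpa3, an hnRNP of the A/B group that shares these probe sets with the predicted gene Gm6793, had 4 of them, all wholly higher in pseudopodia. The brightest, 1428262_s_at, read 3900 and 4194 against 2339 and 2733 (difference 0.68, SE 0.16, adjusted p = 0.0634). The dimmer 1452712_at rose by 1.13 (SE 0.15, adjusted p = 0.0260), with 478 and 496 against 209 and 236, and 1452774_at rose by 1.04 (SE 0.19, adjusted p = 0.0391). Their assignment to Hnrnpa3 is uncertain, since the annotation gives both genes.

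The probe sets shared by Hnrnpa1 and its pseudogenes lay between -0.12 and 0.22, and those shared by Snrpd1, Snrpd2 and Snrpa with predicted genes between -0.32 and -0.03. None of these passed the test.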
